A study of Xenopus laevis with 40 samples.

Results

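Animal cap explants of Xenopus laevis injected with nicd mRNA were compared with explants injected with suh-dbm and dnmcidas mRNA at Nieuwkoop-Faber stage 25. These are 4 of the 40 bulk RNA-seq libraries, chosen by their labels alone, with 2 libraries in each group. An animal cap is the tissue around the animal pole of the blastula, which forms a mucociliary epidermis in culture. All embryos were wild type, mRNA was injected 4 times into the animal hemisphere of four-cell embryos, and caps were cut at stage 8. The nicd embryos received 120 ng/ul of mRNA for the intracellular domain of Notch, the active form of the receptor. The suh-dbm+dnmcidas embryos received 100 ng/ul of mRNA for suh-dbm, a mutant of the Notch effector Suppressor of Hairless that does not bind DNA, and 100 ng/ul for dnmcidas, a dominant-negative form of multicilin. Explants with 100 ng/ul of suh-dbm alone and uninjected explants of the same stage, with 2 libraries each, show what dnmcidas adds and where the unperturbed level lies. The groups therefore differ in Notch activity, in the presence of dnmcidas and in mRNA dose. Experiments 1 and 2 came from different females and fertilizations.

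Notch is a receptor that is cleaved when a neighbouring cell presents a ligand. Its intracellular domain then enters the nucleus and, with Suppressor of Hairless, switches on target genes, among them the hes and hey repressors. In the embryonic frog epidermis, low Notch signalling lets cells become multiciliated cells or ionocytes, and multicilin drives the multiciliated fate. Ionocytes acidify and exchange ions through the V-ATPase proton pump. Goblet cells, small secretory cells and the basal layer make up the rest of the epidermis.

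The 40 libraries held between 20.2 M and 99.4 M counts, with a median of 36.3 M, and the 4 libraries compared held 23.9 M to 39.9 M. The injected genes were checked against the labels and left out of every test and list. notch1.S stood at 470 and 836 CPM in nicd explants, against 32 and 55.9 CPM in suh-dbm+dnmcidas explants. mcidas.S was at 0 in both nicd libraries, against 846 and 499 CPM in suh-dbm+dnmcidas explants, and rbpj.S read 8.27 and 6.02 CPM, against 71.7 and 340 CPM. The 4 libraries matched their labels.

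Transcripts of multiciliated cells were scarce in both groups. The 90 tested motile cilium genes summed to 299 and 294 CPM in nicd explants and 290 and 251 CPM in suh-dbm+dnmcidas explants, against 6743 and 6171 CPM in suh-dbm explants and 5866 and 5325 CPM in uninjected explants. Against uninjected explants, 85 of the 90 were lower in nicd explants and 84 were lower in suh-dbm+dnmcidas explants, where 7.09% and 4.26% of all tested genes were lower. Between nicd and suh-dbm+dnmcidas explants, 3 of the 90 were higher and 2 lower, where 4.72% of all tested genes were higher and 3.82% lower. With the experiment as a term within each stage, 8 were higher and 7 lower. In that fit 3786 of all 31645 tested genes were higher and 3332 lower. foxj1.L, a master regulator of motile cilia, had 0.262 and 0.502 CPM in nicd explants, against 0 and 0.0383 CPM in suh-dbm+dnmcidas explants and 21.2 and 28 CPM in uninjected explants. The nicd to suh-dbm+dnmcidas ratio of foxj1.L was 22.4 (95% exact interval 3.69 to 916, counting error only). Its adjusted p of 0.0432 was 0.0512 with the experiment as a term, 0.0587 with library totals, and 0.0839 to 0.331 when any of the 4 libraries was left out. gmnc.L, which encodes a coiled-coil activator upstream of multicilin, was at 0 in both nicd libraries, against 1.77 and 0.153 CPM, and was at least 23.4-fold lower (adjusted p = 0.0213). That call was lost without nicd experiment 1 (adjusted p = 0.157), nicd experiment 2 (0.118) or suh-dbm+dnmcidas experiment 1 (0.339). In whole-explant libraries, fewer cells of a type and less RNA per cell cannot be told apart, here and in all results that follow.

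Of 31645 tested genes, 2704 (8.54%) differed between nicd and suh-dbm+dnmcidas explants at an adjusted p under 0.05 in edgeR's quasi-likelihood test. nicd explants were higher for 1494 genes (4.72%) and lower for 1210 (3.82%). These shares are the background for each list count below, unless another fit is named. When library totals replaced the trimmed-mean scaling, the median of all genes shifted by -0.239 log2 and the calls split into 964 higher and 1987 lower, so changes are to be read relative to that median. Experiments 1 and 2 gave the same sign for 2701 of the 2704 genes, and experiment 1 gave the larger ratio for 2153. The genes were called from these same libraries, so their agreement in sign follows largely from the selection. Over all tested genes, the ratios of the experiments correlated at r = 0.66. The count was 913 without nicd experiment 1, 2218 without nicd experiment 2, 999 without suh-dbm+dnmcidas experiment 1 and 1664 without suh-dbm+dnmcidas experiment 2. A term for the experiment raised the count of 2704 to 3750, with 2062 higher and 1688 lower. A term for the experiment within each stage, called the experiment-within-stage fit below, raised it to 7118, with 3786 higher and 3332 lower. List counts from these fits are to be read beside these totals. A run without a library leaves a group with a single library and calls fewer genes over all. List counts from such runs are likewise to be read beside their totals above.

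Notch target genes were far higher in nicd explants. Of 33 tested members of the list, 22 were higher and 3 lower, with a median log2 fold change of 6.55, against 0 over all genes. That median was 5.97 with the 10 members that had a group at 0 set to their bound. Summed, the list stood at 2964 and 645 CPM in nicd explants and 226 and 182 CPM in suh-dbm+dnmcidas explants, against 132 and 117 CPM in uninjected explants. Experiment 1 was well above experiment 2 in nicd explants, and neither overlapped the other groups. The count of higher members was 14 without nicd experiment 1, 12 without suh-dbm+dnmcidas experiment 1 and 14 without suh-dbm+dnmcidas experiment 2.

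The hes5 family, transcriptional repressors that are direct Notch targets, led the list. hes5.1.S had 274 and 33 CPM in nicd explants, against 0.721 and 0 CPM in suh-dbm+dnmcidas explants (log2 fold change 8.66, SE 1.19, adjusted p = 5.56e-05). hes5.10.S had 183 and 27.8 CPM in nicd explants, against 0.197 and 0.306 CPM (8.71, SE 1.15, adjusted p = 2.24e-05). The groups did not overlap in either gene, and both genes were near 0 in suh-dbm and uninjected explants, at 2.46 CPM or less. hes5.3.L stood at 55.2 and 11.6 CPM in nicd explants, against 0.328 and 0.191 CPM (6.98, SE 1.3, adjusted p = 0.00102). In several further copies, among them hes5.4.L with 25.8 and 5.68 CPM and hes5.9.L with 14.8 and 2.64 CPM in nicd explants, both suh-dbm+dnmcidas libraries were at 0.

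Both copies of hey1, which encodes a related repressor, were higher too. hey1.S had 623 and 137 CPM in nicd explants, against 2.42 and 6.04 CPM in suh-dbm+dnmcidas explants (6.49, SE 0.76, adjusted p = 4.66e-06), and hey1.L had 539 and 109 CPM, against 4.72 and 5.62 CPM (5.97, SE 0.78, adjusted p = 1.9e-05). hes4.L, another hairy-related repressor, differed less but with the experiments close together, at 108 and 108 CPM in nicd explants, against 36.2 and 29.8 CPM (1.71, SE 0.35, adjusted p = 0.00242). Without suh-dbm+dnmcidas experiment 2 its adjusted p was 0.0516. nrarp.S, which encodes a feedback inhibitor of Notch, was not low when Suppressor of Hairless was blocked: it had 709 and 136 CPM in nicd explants, against 93.4 and 100 CPM in suh-dbm+dnmcidas explants, 46.4 and 52.3 CPM in suh-dbm explants and 36.9 and 37.8 CPM in uninjected explants. Its log2 fold change of 2.12 (SE 0.51, adjusted p = 0.00888) came to 2.92 in experiment 1 and 0.43 in experiment 2. Without nicd experiment 1 the adjusted p was 0.747, without suh-dbm+dnmcidas experiment 1 it was 0.118 and without suh-dbm+dnmcidas experiment 2 it was 0.0726.

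The 3 lower members, singled out after their values were seen, were both copies of lfng, a glycosyltransferase that modifies Notch, and hes1.L. lfng.L had 1.05 and 0.528 CPM in nicd explants, against 12.8 and 7.15 CPM in suh-dbm+dnmcidas explants (-3.68, SE 0.48, adjusted p = 2.18e-05). lfng.S had 4.12 and 2.17 CPM, against 37.3 and 11.3 CPM (-2.95, SE 0.56, adjusted p = 0.00111), and hes1.L had 1.14 and 1.69 CPM, against 16.1 and 4.93 CPM (-2.88, SE 0.77, adjusted p = 0.0176). Nicd explants were the lower group in all 3 genes, with no overlap.

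**Figure D1:**
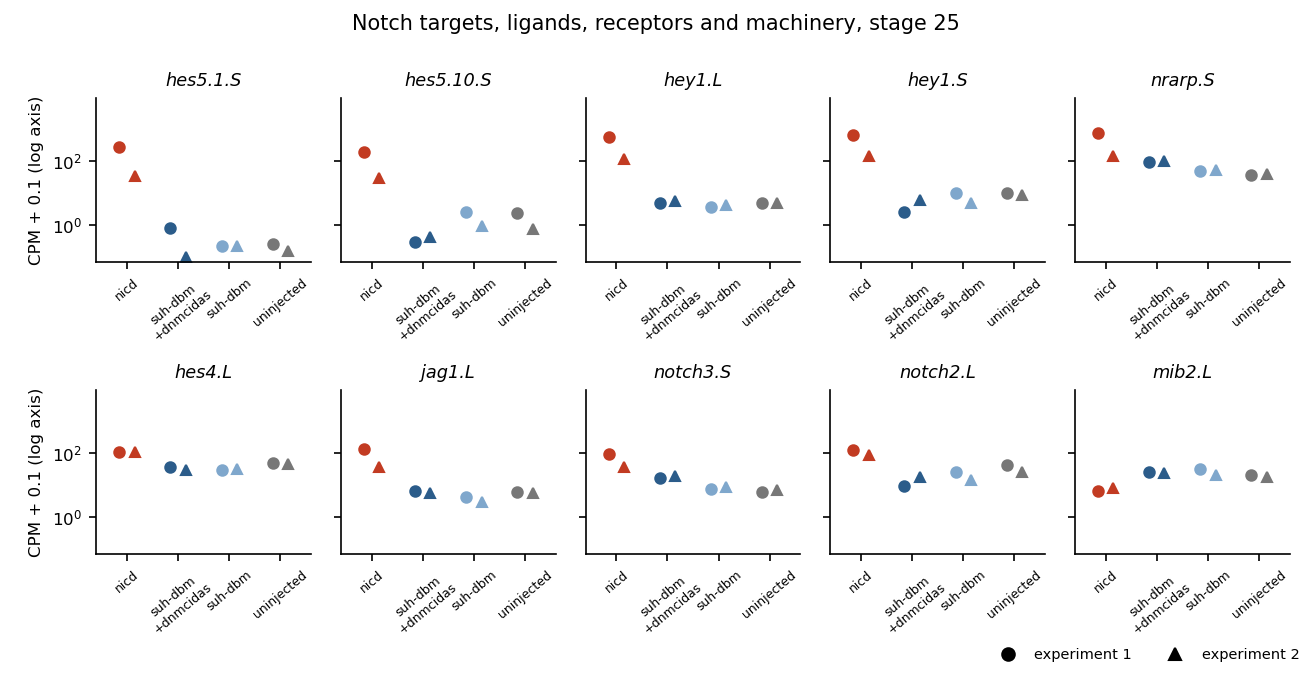
Levels of 10 Notch target, ligand, receptor and pathway genes at stage 25, in CPM + 0.1 on a log axis, for nicd, suh-dbm+dnmcidas, suh-dbm and uninjected explants; circles are experiment 1 and triangles experiment 2. The hes5 and hey1 genes are high only in nicd explants among these groups, with experiment 1 above experiment 2 (274 and 33 CPM for hes5.1.S), while mib2.L is lower in nicd explants than in the other groups.

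Of 16 tested Notch ligand and receptor genes, 6 were higher and 2 lower, with a median of 1.01. The count of higher members was 1 without nicd experiment 1, 2 without either suh-dbm+dnmcidas library and 5 without nicd experiment 2. jag1.L, a ligand of the Serrate type, had 128 and 36.1 CPM in nicd explants, against 6.35 and 5.55 CPM in suh-dbm+dnmcidas explants (3.79, SE 0.61, adjusted p = 0.000249), and its call held in every alternative run. The receptor notch3.S had 89.5 and 36.4 CPM, against 16.5 and 18.2 CPM (1.86, SE 0.39, adjusted p = 0.00303). Without nicd experiment 1 its adjusted p was 0.224, and without suh-dbm+dnmcidas experiment 1 it was 0.0689. The receptor notch2.L had 126 and 82.5 CPM, against 9.2 and 17.7 CPM (2.96, SE 0.8, adjusted p = 0.0193). Its adjusted p was 0.14 without nicd experiment 1, 0.238 without suh-dbm+dnmcidas experiment 1 and 0.072 without suh-dbm+dnmcidas experiment 2.

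The Delta ligand dll1 did not pass the test at this stage. dll1.L had 0.719 and 3.14 CPM in nicd explants, against 10.3 and 6.69 CPM in suh-dbm+dnmcidas explants (-2.12, SE 0.86, adjusted p = 0.135; 0.0305 in the experiment-within-stage fit). dll1.S had 2.78 and 20.5 CPM, against 16.5 and 17.7 CPM (-0.55, SE 0.78, adjusted p = 0.769), and the groups overlapped.

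Of 41 tested genes of the pathway machinery, 2 were higher and 5 lower, 4 and 7 in the experiment-within-stage fit, and the median was 0. Over all tested genes, 4.72% were higher and 3.82% lower. Among the 5 lower machinery genes were an E3 ligase of Notch ligand endocytosis, neurl1.L, and a Numb-like Notch antagonist, numbl.L. neurl1.L had 0.262 and 1.06 CPM in nicd explants, against 74.2 and 58.4 CPM in suh-dbm+dnmcidas explants (-6.61, SE 0.99, adjusted p = 9.81e-05). numbl.L had 4.32 and 1.45 CPM, against 35.6 and 36.5 CPM (-3.65, SE 0.73, adjusted p = 0.00184). mib2.L, another E3 ligase of this step, had 6.15 and 8.03 CPM, against 24.6 and 22.7 CPM (-1.74, SE 0.25, adjusted p = 7.64e-05). The groups were well apart in each of these genes, and the calls held in every alternative run.

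Ionocyte genes were the other large block of change, and here nicd explants were the low group. Of 13 tested copies of ionocyte transcription factor genes, 8 were lower and 3 higher in nicd explants, with a median of -5.57. foxi1.L, the forkhead factor that specifies ionocytes, had 0 and 1.27 CPM in nicd explants, against 364 and 407 CPM in suh-dbm+dnmcidas explants (-9.18, SE 1.56, adjusted p = 0.000397). ubp1.L, a grainyhead-family factor of ionocyte subtypes, had 0 and 0.766 CPM, against 155 and 160 CPM (-8.6, SE 1.51, adjusted p = 0.000556). esrrg.S, an orphan nuclear receptor, had 0 and 0.264 CPM, against 57.1 and 52.7 CPM (-8.57, SE 0.88, adjusted p = 1e-06). Nicd explants were nearly devoid of all 3 transcripts in both experiments. dmrt2.L, a DM-domain factor, followed at 0.981 and 0.264 CPM in nicd explants, against 154 and 157 CPM (-7.99, SE 1.02, adjusted p = 1.6e-05).

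The 3 higher members of the same list were copies of foxi4, a forkhead gene of the early ectoderm. foxi4.1.L had 413 and 305 CPM in nicd explants, against 13.1 and 11.1 CPM in suh-dbm+dnmcidas explants, 0.659 and 0.81 CPM in suh-dbm explants and 6.84 and 3.69 CPM in uninjected explants (nicd over suh-dbm+dnmcidas 4.89, SE 0.86, adjusted p = 0.000546). foxi4.2.L had 94.6 and 58.2 CPM in nicd explants, against 4.81 and 5.28 CPM in suh-dbm+dnmcidas explants (3.92, SE 0.65, adjusted p = 0.00034). Nicd explants exceeded all 3 other groups for both genes, while foxi1 copies were near 0 there. foxi4.1.S, at 8.73 and 7.24 CPM in nicd explants, against 5.14 and 5.09 CPM in suh-dbm+dnmcidas explants, did not pass the test (0.64, SE 0.87, adjusted p = 0.758).

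V-ATPase subunit genes fell together with foxi1. Of 33 tested copies, 22 were lower in nicd explants (median -2.42, against 0 over all genes, where 3.82% were lower), and 22 were lower whichever of the 4 libraries was left out. Their summed level was 1171 and 1498 CPM in nicd explants and 9078 and 10850 CPM in suh-dbm+dnmcidas explants, against 9524 and 12800 CPM in suh-dbm explants and 4950 and 5659 CPM in uninjected explants. The uninjected level thus lay between the groups compared. atp6v1b1.L, a catalytic-head subunit typical of proton-secreting cells, had 6.87 and 20.5 CPM in nicd explants, against 1983 and 2035 CPM (-7.2, SE 0.89, adjusted p = 1.02e-05). atp6v0d2.L, of the membrane-embedded sector, had 2.12 and 3.01 CPM, against 317 and 378 CPM (-7.07, SE 0.52, adjusted p = 4.72e-09). Against uninjected explants, 22 of the 33 were lower in nicd explants and 4 were higher in suh-dbm+dnmcidas explants, where 1.33% of all tested genes were higher.

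Ion exchangers and carbonic anhydrases behaved alike in part. Of 53 tested ionocyte transport genes, 11 were lower and 3 higher (19 and 8 in the experiment-within-stage fit), with a median of -0.24, and the higher count was 1 without suh-dbm+dnmcidas experiment 1. The cytosolic carbonic anhydrase ca2.L had 0 and 2.43 CPM in nicd explants, against 832 and 992 CPM in suh-dbm+dnmcidas explants (-9.51, SE 1.52, adjusted p = 0.000206). The anion exchanger gene slc26a4.L (pendrin) had 0.0654 and 1.14 CPM, against 447 and 599 CPM (-9.7, SE 1.28, adjusted p = 4.46e-05). slc4a9.L, another anion exchanger, had 0 and 0.898 CPM, against 226 and 289 CPM (-9.08, SE 1.5, adjusted p = 0.000301). rhbg.S, an ammonium transporter, was among the higher members, at 143 and 57.1 CPM in nicd explants, against 3.05 and 4.21 CPM (4.79, SE 1.16, adjusted p = 0.00916). It lost the call without nicd experiment 1 (adjusted p = 0.0868) and without suh-dbm+dnmcidas experiment 1 (0.141) or 2 (0.0797).

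**Figure D2:**
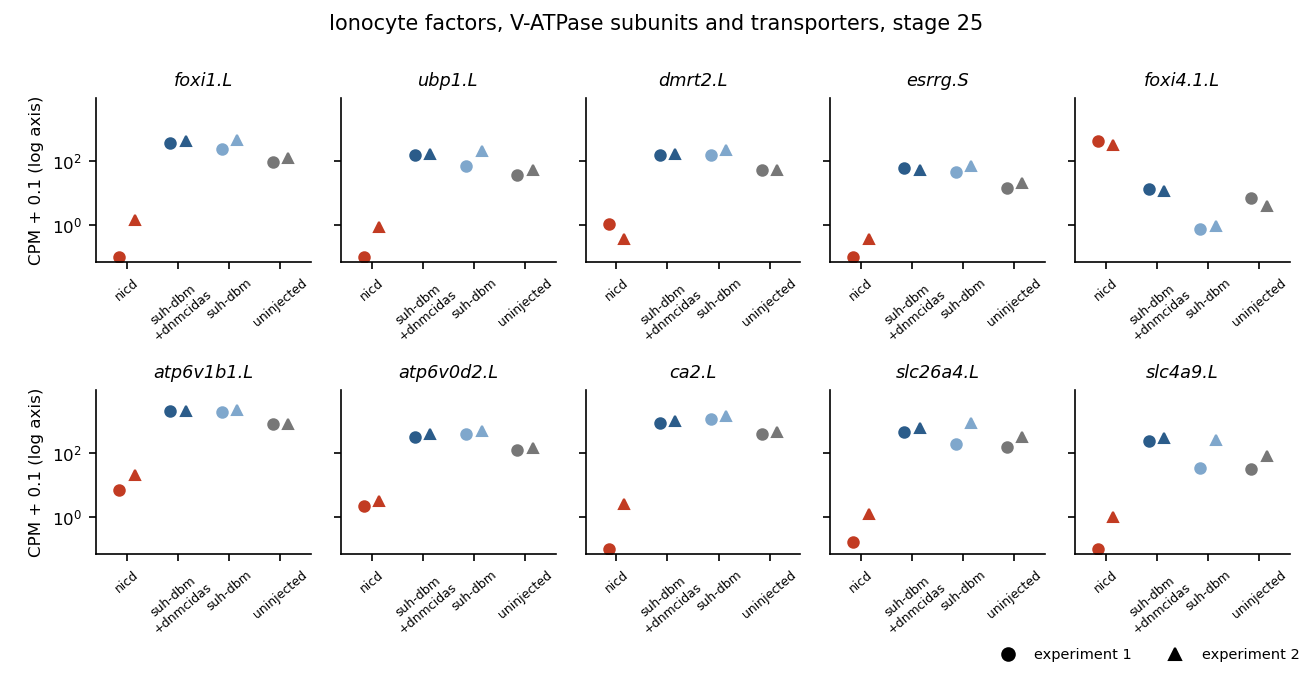
Levels of 10 ionocyte factors, V-ATPase subunits and transporters at stage 25, in CPM + 0.1 on a log axis, by group and experiment. Nicd explants are near 0 for foxi1.L, ubp1.L, dmrt2.L and esrrg.S and below 21 CPM for atp6v1b1.L, while foxi4.1.L is highest in nicd explants, at 413 and 305 CPM.

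Secretory cell genes gave a mixed picture. Of 22 tested small secretory cell genes 2 were higher, 1 without nicd experiment 2 or either suh-dbm+dnmcidas library (3, and 1 lower, in the experiment-within-stage fit), with a median of 0.11 that was -0.15 with library totals. These were spdef.S, an ETS factor of secretory cells, and foxa1.L, the forkhead factor that specifies small secretory cells. spdef.S had 19.1 and 16.6 CPM in nicd explants, against 2 and 1.15 CPM in suh-dbm+dnmcidas explants (3.5, SE 0.65, adjusted p = 0.00104), with the call kept in every alternative run. foxa1.L had 7.85 and 21.8 CPM, against 1.96 and 1.91 CPM (2.93, SE 0.82, adjusted p = 0.024), with an adjusted p of 0.213 without nicd experiment 2, 0.188 without suh-dbm+dnmcidas experiment 1 and 0.149 without suh-dbm+dnmcidas experiment 2.

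The goblet cell lectin itln1.L was below its uninjected level in both groups. It had 456 and 1107 CPM in nicd explants, against 1261 and 1540 CPM in suh-dbm+dnmcidas explants (-0.84, SE 0.58, adjusted p = 0.438), and 5569 and 3995 CPM in uninjected explants. Against uninjected explants, its log2 fold change was -2.61 in nicd explants (adjusted p = 0.00433) and -1.77 in suh-dbm+dnmcidas explants (adjusted p = 0.0816). Of 28 tested goblet cell genes 5 were higher and 1 lower (5 and 4 in the experiment-within-stage fit), with a median of -0.08. With a library left out, the median ranged from -0.26 (without nicd experiment 2) to 0.12 (without suh-dbm+dnmcidas experiment 2). The lower one was the transmembrane mucin muc1.S, with 0.392 and 0.951 CPM in nicd explants, against 9.56 and 20.1 CPM (-4.44, SE 0.8, adjusted p = 0.00127). Among the higher ones was agr2.S, a protein disulfide isomerase of mucus-secreting cells, with 1342 and 1076 CPM, against 75.4 and 155 CPM (3.39, SE 0.78, adjusted p = 0.00619; 0.139 without suh-dbm+dnmcidas experiment 1).

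Markers of the cement gland, a mucus organ at the front of the larva, were read beside these lists. Of 9 tested cement and hatching gland genes 3 were higher (5 in the experiment-within-stage fit). The median was 2.71. With a library left out, it ranged from 2.05 (without nicd experiment 2) to 3.88 (without suh-dbm+dnmcidas experiment 1). The list summed to 1258 and 1481 CPM in nicd explants and 96.6 and 122 CPM in suh-dbm+dnmcidas explants, against 48.4 and 92.5 CPM in uninjected explants. ag1.L, which defines the cement gland, had 591 and 670 CPM in nicd explants, against 7.6 and 24.8 CPM (5.28, SE 1.08, adjusted p = 0.00235; 0.0776 without suh-dbm+dnmcidas experiment 1). The mucin muc2, counted in both lists, had 28.7 and 48.6 CPM, against 1.18 and 2.52 CPM (4.39, SE 1, adjusted p = 0.00579; 0.126 without suh-dbm+dnmcidas experiment 1). The part of cement gland cells in the goblet list's higher members was not tested.

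Of 44 tested basal cell genes 11 were higher in nicd explants and 33 did not pass the test, with a median of 0.95. The higher count was 3 without suh-dbm+dnmcidas experiment 1, 5 without suh-dbm+dnmcidas experiment 2, and 24 with 1 lower in the experiment-within-stage fit. The list summed to 20850 and 19900 CPM in nicd explants and 11460 and 11720 CPM in suh-dbm+dnmcidas explants, against 18090 and 16760 CPM in uninjected explants. Over uninjected explants, 5 of the 44 were higher and 2 lower in nicd explants (median 0.52), and 1 was lower in suh-dbm+dnmcidas explants (median -0.56). lama5.L, a laminin chain of the basement membrane, had 806 and 840 CPM in nicd explants, against 48.2 and 72.1 CPM (3.77, SE 0.57, adjusted p = 0.000106). krt19.L, an intermediate filament protein, had 4765 and 3781 CPM, against 688 and 643 CPM (2.68, SE 0.47, adjusted p = 0.000589). Both calls held in every alternative run, with nicd explants above all 3 other groups.

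tp63, the basal cell transcription factor, showed no difference that passed the test. tp63.L had 223 and 197 CPM in nicd explants, against 222 and 129 CPM in suh-dbm+dnmcidas explants (0.26, SE 0.86, adjusted p = 0.942), and its sign turned with library totals (-0.01). tp63.S had 297 and 203 CPM, against 161 and 110 CPM (0.89, SE 0.49, adjusted p = 0.31). Of 28 tested keratins 4 were higher, with a median of 0.84. The higher count was 2 without suh-dbm+dnmcidas experiment 1, 7 with the experiment as a term and 10 in the experiment-within-stage fit. Of 42 tested genes of claudins and tight junctions, 4 were higher and 3 lower (6 and 9 in the experiment-within-stage fit, 1 and 5 with library totals), and the higher count was 0 without nicd experiment 1 or either suh-dbm+dnmcidas library. Both copies of cgnl1, a paracingulin of the tight junction, were lower, cgnl1.S at 1.96 and 2.22 CPM in nicd explants, against 33.2 and 33.4 CPM (-3.99, SE 0.5, adjusted p = 1.18e-05). cdh1.S, the epithelial cadherin, had 1832 and 1944 CPM in nicd explants, against 879 and 796 CPM (1.17, SE 0.27, adjusted p = 0.00537; 0.0613 and 0.0776 without suh-dbm+dnmcidas experiment 1 and 2).

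Of 46 tested genes of matrix remodelling and inflammation 11 were higher (13, and 4 lower, in the experiment-within-stage fit) and 35 did not pass the test, with a median of 0.87. The higher count was 6 without nicd experiment 1, 5 without suh-dbm+dnmcidas experiment 1 and 6 without suh-dbm+dnmcidas experiment 2. fn1.S (fibronectin) had 460 and 543 CPM in nicd explants, against 31.3 and 16.7 CPM in suh-dbm+dnmcidas explants (4.39, SE 0.49, adjusted p = 2.81e-06). tnc.L (tenascin-C) had 26.3 and 40.9 CPM, against 0.786 and 1.07 CPM (5.18, SE 0.66, adjusted p = 1.81e-05), and mmp1.S, a collagenase, had 222 and 248 CPM, against 1.51 and 11.6 CPM (5.17, SE 0.97, adjusted p = 0.00143). The groups did not overlap in any of these genes. Over uninjected explants, 5 of the 46 were higher and 3 lower in nicd explants (median 0.27), and 1 was higher and 3 lower in suh-dbm+dnmcidas explants (median -0.91). Of 42 tested collagens 6 were higher (median 0.72), 3 without suh-dbm+dnmcidas experiment 1 and 13 in the experiment-within-stage fit. Among them col18a1.S, a basement membrane collagen, had 138 and 160 CPM, against 9.99 and 24.3 CPM (3.12, SE 0.41, adjusted p = 2.33e-05).

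Cell cycle and replication genes were higher in 24 of 63 tested members, with a median of 0.94. The count was 9 without nicd experiment 1, 10 without suh-dbm+dnmcidas experiment 1, 9 without suh-dbm+dnmcidas experiment 2, and 14 with library totals. Against uninjected explants, 35 of the 63 were higher in nicd explants, where 5.2% of all tested genes were higher. The list summed to 3829 and 2761 CPM in nicd explants and 1775 and 1599 CPM in suh-dbm+dnmcidas explants, against 1444 and 1412 CPM in uninjected explants. mcm4.L, a subunit of the replicative helicase, had 87.8 and 60.4 CPM in nicd explants, against 10.7 and 9.18 CPM (2.9, SE 0.29, adjusted p = 8.33e-07). tyms.L (thymidylate synthase) had 27.3 and 20.7 CPM, against 3.73 and 2.41 CPM (2.96, SE 0.34, adjusted p = 4.26e-06). Nicd explants were above the 3 other groups for both genes, and the calls held in every alternative run.

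Calls of ribosomal protein genes depended on the fit. Of 118 tested copies 10 were higher, 16 with the experiment as a term, 106 in the experiment-within-stage fit and 1 with library totals. The log2 fold change was positive for 117 of the 118 and negative for 0. Its median was 0.69, with 0.97 in experiment 1 and 0.39 in experiment 2. Of 117 tested genes of the respiratory chain and ATP synthase 6 were lower. The count was 10 with the experiment as a term, 41 in the experiment-within-stage fit and 19 with library totals. Of the 117, 100 had a negative and 17 a positive log2 fold change. The median was -0.37, with -0.19 in experiment 1 and -0.52 in experiment 2.

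**Figure D3:**
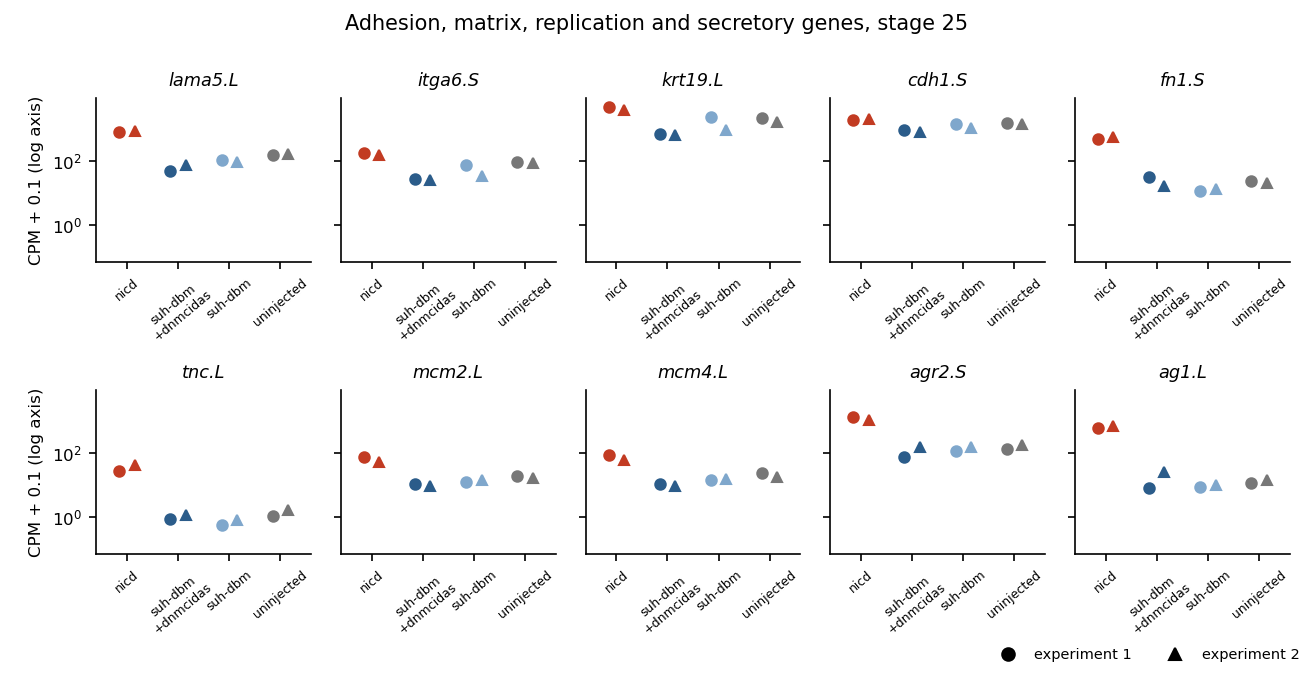
Levels of 10 basal, matrix, replication and gland genes at stage 25, in CPM + 0.1 on a log axis, by group and experiment. Nicd explants are the highest group for lama5.L, krt19.L, fn1.S, tnc.L, the mcm genes, agr2.S and ag1.L, with lama5.L at 806 and 840 CPM against 48.2 and 72.1 CPM in suh-dbm+dnmcidas explants.

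Further signalling pathways were read as lists. Of 75 tested Wnt genes 13 were higher and 1 lower (median 1.02), 25 and 3 in the experiment-within-stage fit. With library totals the higher count was 8. The Wnt median was 0.24 without nicd experiment 1 and 0.69 without nicd experiment 2. It was 0.8 without suh-dbm+dnmcidas experiment 1 and 0.89 without suh-dbm+dnmcidas experiment 2. Of 64 tested FGF, EGF and Shh genes 10 were higher (median 0.95), 23 and 1 in the experiment-within-stage fit, 3 higher without nicd experiment 1, 1 without suh-dbm+dnmcidas experiment 1 and 5 without suh-dbm+dnmcidas experiment 2. The FGF receptor gene fgfr1.S had 127 and 88.8 CPM in nicd explants, against 25.9 and 26.3 CPM in suh-dbm+dnmcidas explants (2.05, SE 0.29, adjusted p = 5.33e-05). It was called in every alternative run, and both groups stood above suh-dbm explants, at 2.51 and 4.31 CPM. Of 51 tested BMP and TGF-beta genes 3 were higher (median 0.85), near the 4.72% of all tested genes. The count was 1 with library totals and 13 in the experiment-within-stage fit, where 3786 of 31645 tested genes were higher. The median was 0.59 without nicd experiment 1 or suh-dbm+dnmcidas experiment 1. It was 0.68 without nicd experiment 2 and 1.12 without suh-dbm+dnmcidas experiment 2.

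Markers of other tissues that a cap could hold were read for the same reason as the cement gland list. The 40 tested neural and neuronal genes summed to 554 and 577 CPM in nicd explants, against 274 and 261 CPM in suh-dbm+dnmcidas explants. The sums were 92.6 and 130 CPM in suh-dbm explants and 139 and 170 CPM in uninjected explants. The median log2 fold change between the groups compared was -0.33, with 16 members positive and 22 negative. Called were 1 higher and 3 lower (4 and 3 with the experiment as a term, 6 and 8 in the experiment-within-stage fit). Of these 40, 10 and 11 were at 0 in the nicd libraries, against 5 and 7 in the suh-dbm+dnmcidas libraries. The most counted of the members named by the rule was tubb2b.L, a neuronal tubulin, at 219 and 217 CPM in nicd explants, against 41 and 90.7 CPM in suh-dbm+dnmcidas explants (1.73, SE 1.09, adjusted p = 0.389; 0.023 with the experiment as a term and 0.0103 in the experiment-within-stage fit). The higher member was the neural adhesion molecule ncam1.S, at 10.8 and 14 CPM in nicd explants, against 0.982 and 1.42 CPM (3.37, SE 0.7, adjusted p = 0.00271; 0.0784 without suh-dbm+dnmcidas experiment 1). The neural progenitor factor sox3.S, lower in nicd explants, had 2.42 and 1.93 CPM in nicd explants, against 13 and 8.95 CPM (-2.34, SE 0.58, adjusted p = 0.0112), a call lost without either nicd library (adjusted p = 0.0851 and 0.087) or suh-dbm+dnmcidas experiment 1 (0.0937).

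The 18 mesoderm and muscle genes summed to 471 and 518 CPM in nicd explants, against 33.4 and 96.2 CPM in suh-dbm+dnmcidas explants, with 1 called higher (5 in the experiment-within-stage fit). The most counted member was nkx2-5.S, a cardiac homeobox gene, at 322 and 204 CPM, against 19.7 and 53.3 CPM (2.85, SE 0.97, adjusted p = 0.0705). Its adjusted p was 0.0425 in the experiment-within-stage fit, 0.00635 with every gene kept, 0.0243 by DESeq2, 0.0162 with the 10 libraries of stage 25 and 0.0373 with the 4 libraries alone. The called member was actc1.S, the cardiac and skeletal muscle actin, at 38.7 and 142 CPM in nicd explants, against 0 and 1.22 CPM in suh-dbm+dnmcidas explants (7.24, SE 2.1, adjusted p = 0.0305). Its adjusted p was 0.0599 without nicd experiment 1, 0.0993 without nicd experiment 2, 0.261 without suh-dbm+dnmcidas experiment 1 and 0.0686 without suh-dbm+dnmcidas experiment 2. The muscle determination gene myod1.L was at 0 and 0.106 CPM in nicd explants, against 0 and 0.153 CPM, and mespb.L was at 0 in all 4 libraries. The 14 endoderm genes summed to 144 and 87.9 CPM, against 118 and 73.7 CPM, and the 13 macrophage and blood genes to 33 and 80 CPM, against 7.89 and 21.6 CPM, with 1 call (lower) and 0 calls (3 at an unadjusted p under 0.05); the edgeR fit with a term for the experiment within each stage called 3 of each list, and DESeq2 called 2 and 1. The part of such cells in the other results was not tested.

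**Figure D4:**
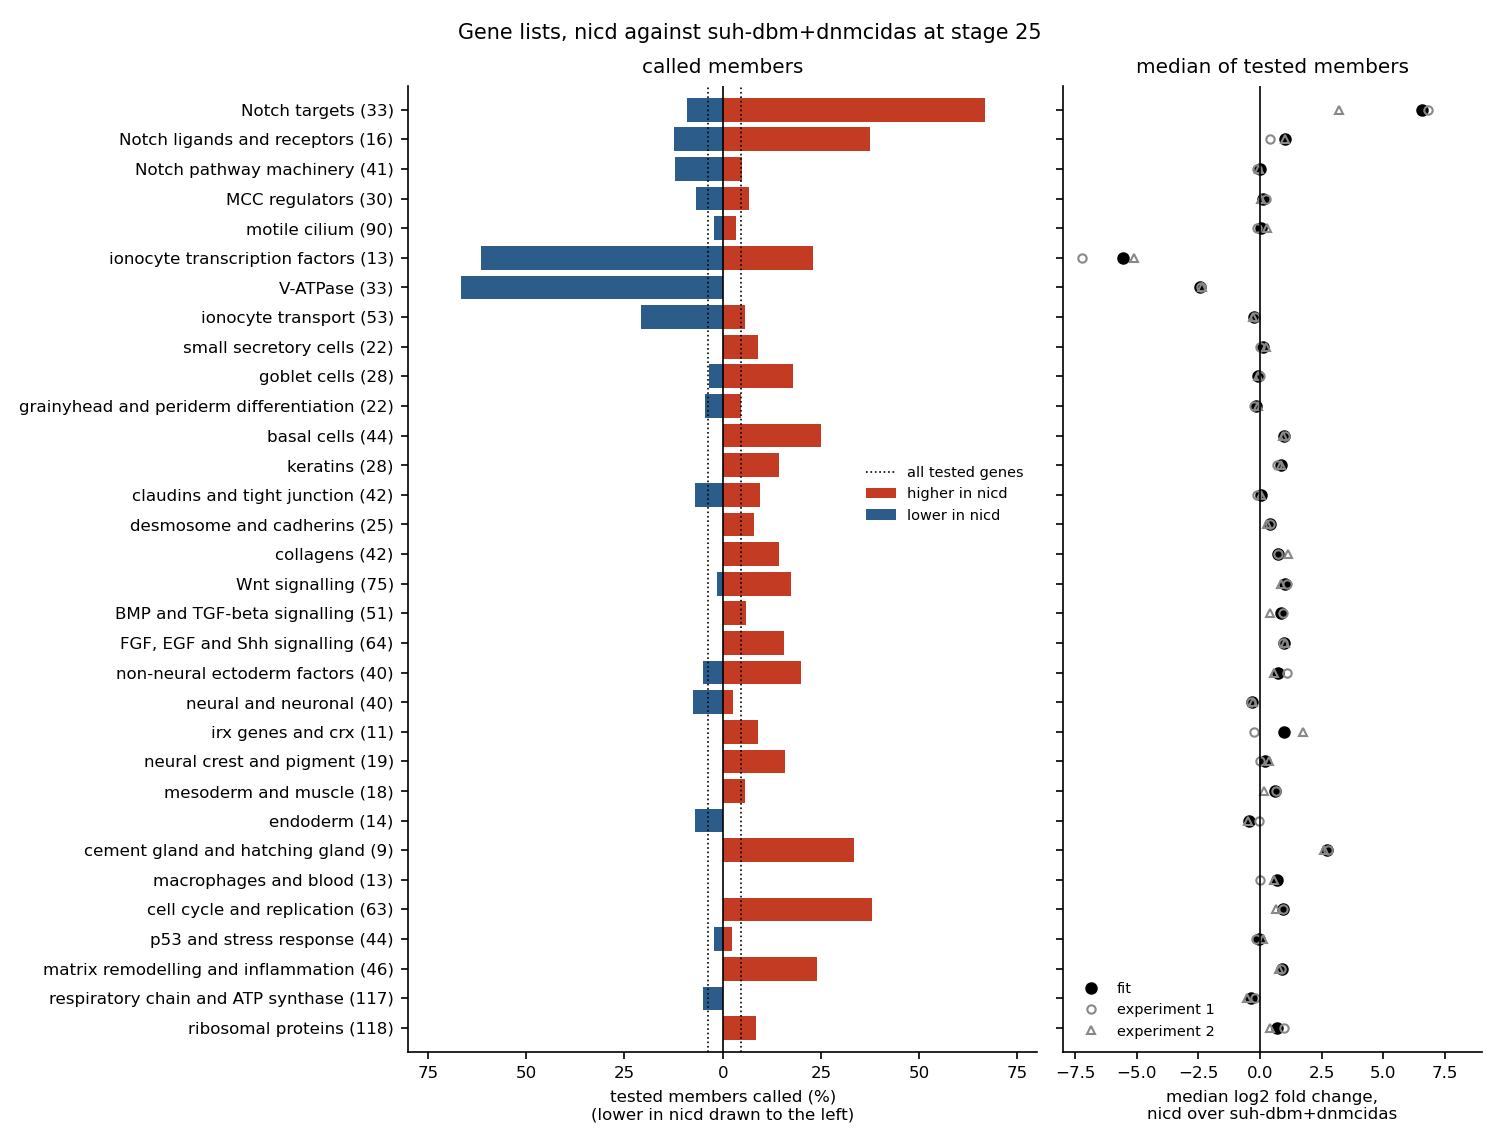
Left, the share of tested members of each list called higher (red, to the right) or lower (blue, to the left) in nicd than in suh-dbm+dnmcidas explants, with dotted lines at the 4.72% and 3.82% of all tested genes; the number tested is in brackets. Right, the median log2 fold change of the tested members in the fit (filled) and in each experiment (open). Notch targets stand out to the right (median 6.55) and ionocyte transcription factors (-5.57) and V-ATPase genes (-2.42) to the left.

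Among abundant genes outside these lists, the largest differences included developmental and structural genes. crabp2.L, a retinoic acid binding protein, had 426 and 127 CPM in nicd explants, against 0.851 and 2.64 CPM in suh-dbm+dnmcidas explants (7.32, SE 1.32, adjusted p = 0.000717). hcrt.L, the orexin precursor gene, had 190 and 306 CPM, against 0.295 and 4.55 CPM (6.69, SE 1.19, adjusted p = 0.000616). a2ml1.L, a protease inhibitor, had 250 and 187 CPM, against 3.34 and 3.83 CPM (5.93, SE 0.85, adjusted p = 5.94e-05). Nicd explants were the highest of the 4 groups for each of these genes. gmnn.L, which encodes the replication inhibitor geminin, had 314 and 48.6 CPM, against 5.6 and 5.28 CPM (5.06, SE 0.86, adjusted p = 0.00039).

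Because dnmcidas was present in one group only, suh-dbm+dnmcidas explants were set against suh-dbm explants for the same genes. This comparison shares libraries with the main one, and 1899 of 31645 genes (6%) were called, 2.09% higher and 3.91% lower in suh-dbm+dnmcidas explants. Lower in suh-dbm+dnmcidas explants were 84 of 90 motile cilium genes and 10 of 30 regulators of multiciliated cells. Higher were 4 of 11 irx genes and crx, 10 of 64 FGF, EGF and Shh genes (1 lower) and 7 of 63 cell cycle genes. So were 5 of 40 neural genes, 5 of 42 claudin and tight junction genes (1 lower) and 6 of 75 Wnt genes. Of the 33 V-ATPase copies 0 were called by edgeR (1 at an unadjusted p under 0.05). Of the 33 Notch targets 1 was higher, and of the 13 ionocyte factors 2 were higher. These 2 were foxi4.1.L (log2 fold change 4.03, adjusted p = 0.0039) and foxi4.2.L (2.68, adjusted p = 0.014), both of which were lower in suh-dbm+dnmcidas than in nicd explants. For foxi1.L the log2 fold change between suh-dbm+dnmcidas and suh-dbm explants was 0.19 (adjusted p = 0.99) and for lama5.L it was -0.68 (adjusted p = 0.552). acta2.S, smooth muscle actin, was lower in suh-dbm+dnmcidas than in suh-dbm explants (-4.96, SE 1.2, adjusted p = 0.0113). It had 114 and 126 CPM in nicd explants, against 0.262 and 1.84 CPM in suh-dbm+dnmcidas explants, 51.7 and 12.5 CPM in suh-dbm explants and 18.1 and 39.6 CPM in uninjected explants. For acta2.S, nicd explants were well above suh-dbm+dnmcidas explants (6.86, SE 1.3, adjusted p = 0.00126), and suh-dbm and uninjected explants lay between them.

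Against uninjected explants, 3892 genes (12.3%) were called in nicd explants, 5.2% higher and 7.09% lower, and 1768 (5.59%) in suh-dbm+dnmcidas explants, 1.33% higher and 4.26% lower. Both comparisons use the same uninjected libraries. Of the 33 Notch targets, 22 were higher and 1 lower in nicd explants and 2 were higher in suh-dbm+dnmcidas explants. For foxi1.L the log2 fold changes over uninjected explants were -7.34 in nicd explants (adjusted p = 0.000958) and 1.85 in suh-dbm+dnmcidas explants (adjusted p = 0.405). For lama5.L they were 2.42 (adjusted p = 0.00285) and -1.36 (adjusted p = 0.143).

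The same contrast was made in libraries of 3 other stages, the gastrula stage labelled st10.5 and stages 16 and 32. It called 23 genes (0.0727%) at st10.5, 0.0632% higher and 0.00948% lower. It called 2363 (7.47%) at stage 16, 4% higher and 3.47% lower, and 944 (2.98%) at stage 32, 0.904% higher and 2.08% lower. With the experiment as a term the counts were 52 at st10.5 and 1475 at stage 32. In the experiment-within-stage fit they were 192 at st10.5, 6546 at stage 16 and 3728 at stage 32. By st10.5, 5 of the 33 Notch targets were already higher, at stage 16 21 were higher and 3 lower, and at stage 32 6 were higher and 2 lower. V-ATPase genes were lower in 21 of 33 copies at stage 16 and again in 21 at stage 32. Motile cilium genes had more calls than at stage 25. Of 90 tested, 9 were higher and 0 lower at stage 16 (median 0.77), and 0 higher and 14 lower at stage 32 (median -1.15). The test of the difference between stages, given below, called 1 of the 90 for stage 25 against 16, lower at stage 25. There 0.392% of all tested genes were called. For stage 25 against 32 it called 0 of the 90, and 0.00632% of all tested genes.

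hey1.S had 47.3 and 232 CPM in nicd explants, against 2.99 and 3.26 CPM in suh-dbm+dnmcidas explants at st10.5, 285 and 294 CPM against 3.42 and 3.51 CPM at stage 16, and 36.4 and 14.7 CPM against 6.92 and 3.2 CPM at stage 32. For nrarp.S the log2 fold changes at st10.5 and stages 16 and 32 were 1.87 (adjusted p = 0.29), 3.33 (adjusted p = 0.000288) and -0.12 (adjusted p = 0.995). foxi1.L had 0.89 and 1.11 CPM in nicd explants, against 55.9 and 99.3 CPM at st10.5, and 0 and 0.22 CPM, against 252 and 212 CPM, at stage 32. The nicd explants were the low group for foxi1.L at all 4 stages.

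The test of the difference between stages called 124 genes (0.392%) between stages 25 and 16, 0.139% with a higher and 0.253% with a lower log2 fold change at stage 25. It called 273 with the experiment as a term and 1304 in the experiment-within-stage fit. Between stages 25 and 32 it called 2 genes (0.00632%), pck1.L and LOC108695965, named because the count was small. The log2 fold change of pck1.L was 2.1 at stage 25 (adjusted p = 0.00823) and -2.65 at stage 32 (adjusted p = 0.00325). That of LOC108695965 was 4.02 at stage 25 (adjusted p = 2.79e-06) and 0.43 at stage 32 (adjusted p = 0.757). An unadjusted p under 0.05 was found for 1733 of 31645 genes (5.48%), little above the share that this cutoff gives without any difference. DESeq2 called 88, the fit with the experiment as a term 9 and the experiment-within-stage fit 112. Between stages 25 and 32, 13 of the 33 Notch targets had an unadjusted p under 0.05, against 5.48% of all tested genes. So did 34 of the 90 motile cilium genes, and 0 of the 118 ribosomal protein genes. In the main fit 0 genes of these lists were called. Of the 33 Notch targets, 0 were called between stages 25 and 16, near the 0.392% of all tested genes. An unadjusted p under 0.05 was found for 5 of the 33, where 8.75% of all tested genes had one. dll1.S differed: it had 0.423 and 5.28 CPM in nicd explants, against 317 and 220 CPM in suh-dbm+dnmcidas explants at stage 16, where at stage 25 the groups overlapped (difference 6.02, SE 1.19, adjusted p = 0.0201). fn1.S and tnc.L also differed, by 3.17 (SE 0.62, adjusted p = 0.0196) and 4 (SE 0.82, adjusted p = 0.0274). At stage 16 neither passed the test, with fn1.S at 259 and 179 CPM in nicd explants, against 117 and 71 CPM (1.22, adjusted p = 0.0918).

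**Figure D5:**
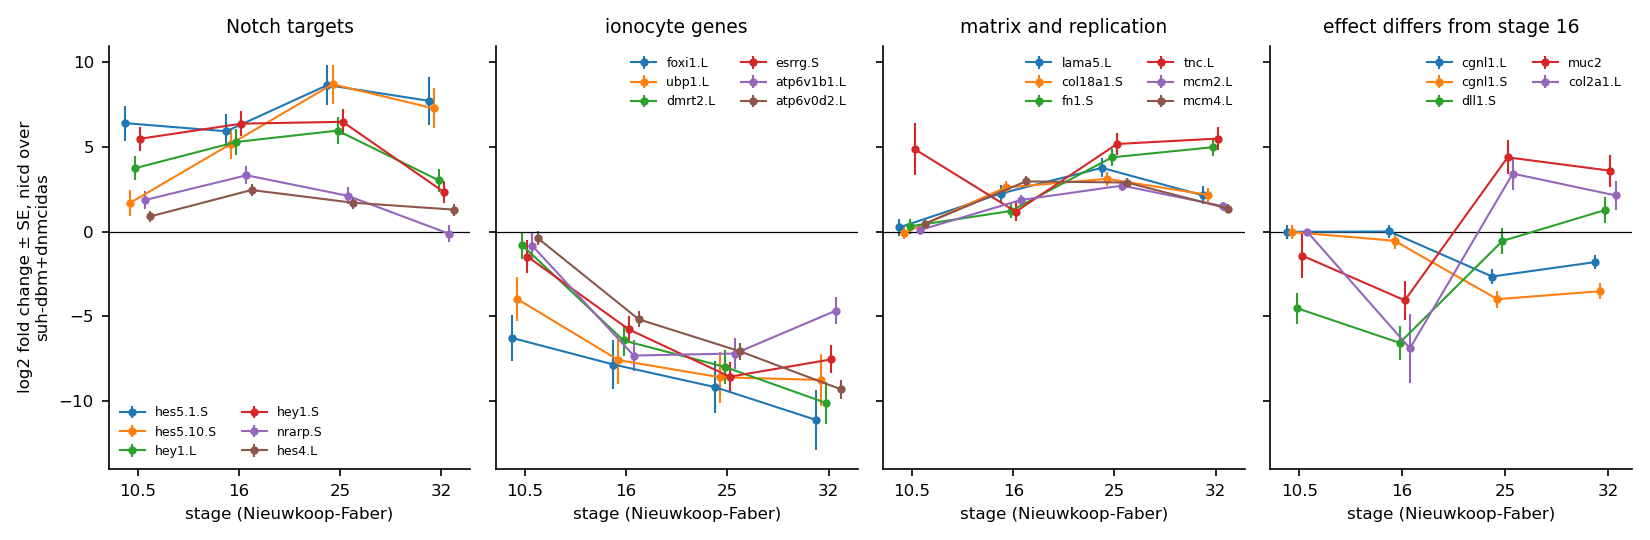
Log2 fold change of nicd over suh-dbm+dnmcidas explants (± SE from the fit, 2 libraries a group) at st10.5 and stages 16, 25 and 32, for Notch targets, ionocyte genes, matrix and replication genes, and genes whose effect differed between stages 25 and 16. Ionocyte genes lie far below 0 from stage 16 on, and foxi1.L is below 0 at st10.5 too. In contrast, tnc.L and fn1.S lie near 1 at stage 16 (1.18 and 1.22) and above 4 at stage 25 (5.18 and 4.39).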

How the data were processed

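Per the submitters' processing notes, reads were handled with FastQC 0.11.5, STAR 2.6.0b-1, featureCounts 1.6.3 and DESeq2 1.22.1. The authors deposited raw counts per gene for each library (51017 gene IDs, 48349 with a symbol in the authors' table); the genome build, annotation and handling of multi-mapped reads are not given in the sources used here, so no coordinates or sequences are shown, and reads of L and S copies may be shared. Per the labels, libraries were unstranded poly-A, so antisense partners cannot be told apart, and both sequencing runs held every sample. The authors' deposited result tables were not used.

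Testing used edgeR 4.0.16 (quasi-likelihood, under R 4.3.3) in 1 fit of 40 libraries and 20 groups without a term for the experiment (20 residual degrees of freedom), with TMM factors, filterByExpr (minimum count 10, minimum total 15) and Benjamini-Hochberg adjustment over 31645 genes; genes with an adjusted p under 0.05 were called. Besides the treatments named above, that fit held explants injected with 3 pmol of foxa1 morpholino at the same stages. Those libraries entered the filter, the scaling and the estimate of the spread, but no comparison. The log2 fold changes and SEs printed come from that fit, with edgeR's default prior count. A prior count of 2 was used only for log2 CPM values, and so for the ratios within each experiment. CPM values use library totals multiplied by TMM factors and are not comparable between genes. CPM pairs are experiments 1 and 2. Labels tie the experiment number to a female and fertilization, so it pairs the samples: deviations from the group mean correlated at r = 0.39 between the groups compared, and at 0.25 to 0.49 over the 10 pairs of groups at stage 25. Replicates of both groups differed by more than sampling noise (chi-square per degree of freedom 93.2 in nicd and 48.3 in suh-dbm+dnmcidas). The floor for a group at 0 is 3 counts over the group, and intervals (95%, exact) and floors reflect counting error alone, because these reads carry no molecular identifiers and are not independent molecules.

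The members and the 32 gene lists (792 entries) were chosen with earlier results of these data known, so counts over lists are descriptions. Genes were named by rule: 12 reference genes, up to 12 per direction with the largest called change at a mean log2 CPM of at least 3, up to 4 called genes per list at a mean log2 CPM of at least 1, and the most counted members of the lists for other tissues. Alternatives were RLE factors, library totals (added after seeing the data), no filter, DESeq2 1.42.0, terms for the experiment, fewer libraries, summed L and S copies, injected genes kept, and each library left out. The test was tried on simulated counts.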

Additional observations from a re-analysis of the deposited data

Results flagged for a closer look

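For 7 named genes the test of the difference itself found the stage 25 effect of nicd against suh-dbm+dnmcidas to differ from the stage 16 effect, in edgeR's quasi-likelihood test with Benjamini-Hochberg adjustment over all tested genes. The values are the stage 25 log2 fold change minus the stage 16 one. It was 6.02 for dll1.S, a Notch ligand. It was 3.17 for fn1.S and 4 for tnc.L, which encode matrix proteins, and both of these passed the test at stage 25 and at stage 32. It was 8.45 for muc2 (SE 1.52, adjusted p = 0.0141), a mucin gene with 0.159 and 0.127 CPM in nicd explants, against 2.57 and 2.32 CPM in suh-dbm+dnmcidas explants, at stage 16. It was 10.32 for col2a1.L (SE 2.12, adjusted p = 0.0308), a fibrillar collagen gene at 0 in both nicd libraries of stage 16. This fitted value therefore depends on the default prior count of the fit and is no bound. The junction gene cgnl1 gave -2.66 for cgnl1.L (SE 0.59, adjusted p = 0.0429) and -3.45 for cgnl1.S (SE 0.66, adjusted p = 0.0169). At stage 16 cgnl1.S stood at 1.56 and 2.06 CPM in nicd explants and 1.56 and 3.73 CPM in suh-dbm+dnmcidas explants. Every group holds 2 libraries, so no single library could be examined as standing apart within its group.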

How the results depend on the processing

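The 2704 genes called at stage 25 numbered between 913 and 2218 when a library was left out, 3750 with the experiment as a term (replicate block), 7118 with the experiment as a term within each stage (replicate block within stage) and 1296 in a fit of the 4 libraries alone, whose 2 residual degrees of freedom give little power. Of 1277 list entries tested, 233 were called, between 104 and 208 with a library left out, 537 with the block within each stage and 154 with L and S copies summed, where fewer genes were tested. At st10.5 the count of 23 was 52 with the block, 192 with the block within stage, 73 with every gene kept and 104 by DESeq2. At stage 16 the count of 2363 was 6546 with the block within stage and 3702 by DESeq2. At stage 32 the count of 944 was 1475 with the block, 3728 with the block within stage and 1803 by DESeq2, and with library totals its 1027 calls were 198 higher and 829 lower, against 286 and 658. For stage 25 against 16 the count of 124 was 273 with the block, 1304 with the block within stage, 237 with every gene kept and 495 by DESeq2, and 135 (32 higher and 103 lower) with library totals, against 44 and 80. For stage 25 against 32 the count of 2 was 9, 112, 57 and 88 in the same fits. The cause of these differences was not tested. Of 111 named genes called, 52 were called under every alternative run and none changed sign; among named genes foxj1.L alone lost its call under the replicate block (adjusted p = 0.0512), cebpa.L (0.00476) and tubb2b.L (0.023) gained one, and the block changed no other call; within each stage dll1.L, nkx2-5.L, nkx2-5.S and snai1.S also gained one. The sign turned for 6 genes that were not called. Over the fits that leave out a library, a2m.S ranged from -0.18 to 0.89, cebpa.S from -0.55 to 0.77, dll1.S from -2.67 to 0.21, gata5.S from -1.19 to 3.61, itln1.S from -0.94 to 0.29 and tp63.L from -0.12 to 0.65 on the log2 scale. In addition gata5.S was 0.06 with the replicate block and 0.31 with the block within stage, and tp63.L was -0.01 with library totals. With 2 libraries a group, the spread is borrowed from all 20 groups.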

Other observations

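Of 40 tested factors of the non-neural ectoderm, 8 were higher and 2 lower in nicd than in suh-dbm+dnmcidas explants, with a median log2 fold change of 0.74; the higher count was 1 without nicd experiment 1, 2 without suh-dbm+dnmcidas experiment 1 and 1 without suh-dbm+dnmcidas experiment 2. dlx4.L, a distal-less homeobox gene, had 40.2 and 28.7 CPM in nicd explants, against 1.34 and 3.6 CPM in suh-dbm+dnmcidas explants (3.81, SE 1.08, adjusted p = 0.0268), and dlx6.L, of the same family, had 46.9 and 30.4 CPM, against 3.27 and 3.9 CPM (3.43, SE 0.77, adjusted p = 0.00528). Without nicd experiment 1, suh-dbm+dnmcidas experiment 1 and suh-dbm+dnmcidas experiment 2, in turn, the adjusted p was 0.132, 0.274 and 0.0855 for dlx4.L and 0.0553, 0.0995 and 0.0564 for dlx6.L.

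Of 19 tested neural crest and pigment genes 3 were higher (5 and 1 lower with the experiment as a term within each stage), of 11 irx genes and crx 1 was higher, of 25 desmosome and cadherin genes 2 were higher, of 22 genes of grainyhead and periderm differentiation 1 was higher and 1 lower, of 44 genes of p53 and stress response 1 was higher and 1 lower, and of 30 regulators of multiciliated cells 2 were higher and 2 lower. Medians of these lists were 0.18, 0.95, 0.4, -0.18, -0.05 and 0.12 on the log2 scale, against 0 over all tested genes, of which 4.72% were higher and 3.82% lower; single calls in the grainyhead and p53 lists are near or below those shares. In the list of irx genes and crx, crx.L, a homeobox gene of the anterior neural plate and eye, had 43.8 and 13.5 CPM in nicd explants, against 3.54 and 2.87 CPM in suh-dbm+dnmcidas explants (3.16, SE 0.97, adjusted p = 0.0463), and was at 0 in both suh-dbm libraries; the call was lost with library totals (adjusted p = 0.0684) and without nicd experiment 1 (0.413) or suh-dbm+dnmcidas experiment 1 (0.237) or 2 (0.231). In the neural crest list, sox9.S, a neural crest factor, had 68.3 and 21.9 CPM, against 4.09 and 2.98 CPM (3.67, SE 0.74, adjusted p = 0.00203; 0.0714 without nicd experiment 1). The neural crest median was -0.07 with library totals. Without nicd experiment 1 or either suh-dbm+dnmcidas library, the higher count was 1 for neural crest and pigment genes and 0 for irx genes and crx, for regulators of multiciliated cells and for p53 and stress genes. With the experiment as a term within each stage, calls higher and lower were 2 and 1 for irx genes and crx and 8 and 1 for desmosome and cadherin genes. They were 2 and 4 for grainyhead and periderm genes, and 2 and 7 for p53 and stress genes. In that fit 3786 of all 31645 tested genes were higher and 3332 lower. The median of desmosome and cadherin genes was 0.06 without nicd experiment 1 and 0.26 without nicd experiment 2. It was 0.4 without suh-dbm+dnmcidas experiment 1 and 0.32 without suh-dbm+dnmcidas experiment 2.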
